A study of Homo sapiens with 4 samples.

Results

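The 10 genes described here are NFKBIA, TNFAIP3, NFKB1, NFKB2, RELB, CXCL1, CXCL2, CXCL5, CXCL8 and CCL20, a set of NF-κB subunits, NF-κB inhibitors and chemokines taken by gene symbol from 24462 genes counted in HepG2, a human hepatocellular carcinoma cell line. All 10 symbols were found, each once. The cells had received DMSO, PD0332991 (a CDK4/6 kinase inhibitor), a scrambled siRNA, or siRNAs targeting both CDK4 and CDK6 (CDK4/6 KD), and each of these 4 conditions was sequenced as 1 library from total RNA of HepG2 cells. The dose of PD0332991, the exposure time and the time after transfection are not stated for the sequenced cells. The libraries address what inhibition of CDK4/6, by a drug or by knockdown, does to gene expression in this cell line, and PD0332991 was set against DMSO and CDK4/6 KD against scrambled siRNA.

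NF-κB is a family of transcription factors that are held in the cytoplasm by IκB proteins and enter the nucleus once signals from receptors such as those for TNF or IL-1 lead to IκB degradation. Among the genes they switch on are their own inhibitors, which gives a negative feedback loop, and chemokines, secreted proteins that attract neutrophils, lymphocytes and dendritic cells. In the liver, hepatocytes and hepatoma cells can make several of these chemokines during inflammation.

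NF-κB binds κB sites in DNA, and the stretch before the annotated transcript start was therefore searched in each gene. RefSeq windows on GRCh38.p14 were matched for NFKBIA, TNFAIP3, NFKB1, NFKB2, CXCL1, CXCL2, CXCL5, CXCL8 and CCL20, and the missing entry was RELB. The 9-letter form GGNNNTTCC, read on both strands, was present in the 250 bases upstream of at least 1 start of all 9 genes, against 17.1% of 35116 windows of the same length in the whole table. The longer κB decamer consensus, whose letters overlap those of the 9-letter form, was present for 8 of the 9 (all but CXCL8), against 9.96% of windows. An AP-1 form, TGANTCA, was present for CXCL8 alone, from -137 to -131 counted from the start, against 6.57% of windows. The percentages are per window and the counts per gene, and for both κB forms NFKB1 matched in 1 of 2 windows and NFKB2 in 2 of 3. The genes were taken as an NF-κB set, so these percentages are no test of them. A match describes letters and is not a measured binding site. The windows of 5 genes are printed 5′ to 3′ on the gene's own strand, with the matches to GGNNNTTCC or its reverse complement in capitals, since these genes carry the differences given later or, for CXCL1 and CXCL2, are near copies of each other.
CCL20, chr2:227813592-227813841, plus strand: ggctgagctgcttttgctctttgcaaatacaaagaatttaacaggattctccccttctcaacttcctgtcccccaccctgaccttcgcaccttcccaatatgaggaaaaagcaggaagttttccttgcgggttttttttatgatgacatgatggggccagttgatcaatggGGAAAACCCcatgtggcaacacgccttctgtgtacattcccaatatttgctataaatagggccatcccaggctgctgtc
CXCL8, chr4:73740319-73740568, plus strand: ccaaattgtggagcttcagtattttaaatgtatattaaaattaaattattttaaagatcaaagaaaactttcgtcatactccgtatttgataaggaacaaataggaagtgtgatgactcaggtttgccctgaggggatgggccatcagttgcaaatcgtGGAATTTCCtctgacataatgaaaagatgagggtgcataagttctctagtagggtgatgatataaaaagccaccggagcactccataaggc
NFKBIA, chr14:35404750-35404999, minus strand: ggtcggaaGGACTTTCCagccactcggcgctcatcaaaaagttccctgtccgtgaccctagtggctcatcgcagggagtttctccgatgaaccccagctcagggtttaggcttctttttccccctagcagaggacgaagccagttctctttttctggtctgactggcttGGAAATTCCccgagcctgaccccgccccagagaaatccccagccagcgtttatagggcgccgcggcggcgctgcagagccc
CXCL1, chr4:73869143-73869392, plus strand: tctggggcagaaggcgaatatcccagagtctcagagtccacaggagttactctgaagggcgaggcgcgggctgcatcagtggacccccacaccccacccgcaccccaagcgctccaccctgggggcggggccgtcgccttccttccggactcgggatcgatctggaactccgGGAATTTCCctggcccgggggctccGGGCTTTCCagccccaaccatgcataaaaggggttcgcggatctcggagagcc
CXCL2, chr4:74099196-74099445, minus strand: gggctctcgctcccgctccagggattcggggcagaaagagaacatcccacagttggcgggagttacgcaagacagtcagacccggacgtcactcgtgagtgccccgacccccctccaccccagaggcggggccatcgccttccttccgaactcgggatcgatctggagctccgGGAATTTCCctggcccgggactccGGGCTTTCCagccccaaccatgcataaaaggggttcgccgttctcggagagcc

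The match of CCL20 read GGAAAACCC on the printed strand and lay from -79 to -71. The match GGAATTTCC was shared by CXCL8 (-91 to -83), CXCL1 (-78 to -70), CXCL2 (-77 to -69), CXCL5 (-90 to -82) and NFKB1 (-48 to -40). NFKBIA held GGACTTTCC and GGAAATTCC, and TNFAIP3 held GGAAAGTCC and GGAAATCCC within 67 bases of its start.

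**Figure D1:**
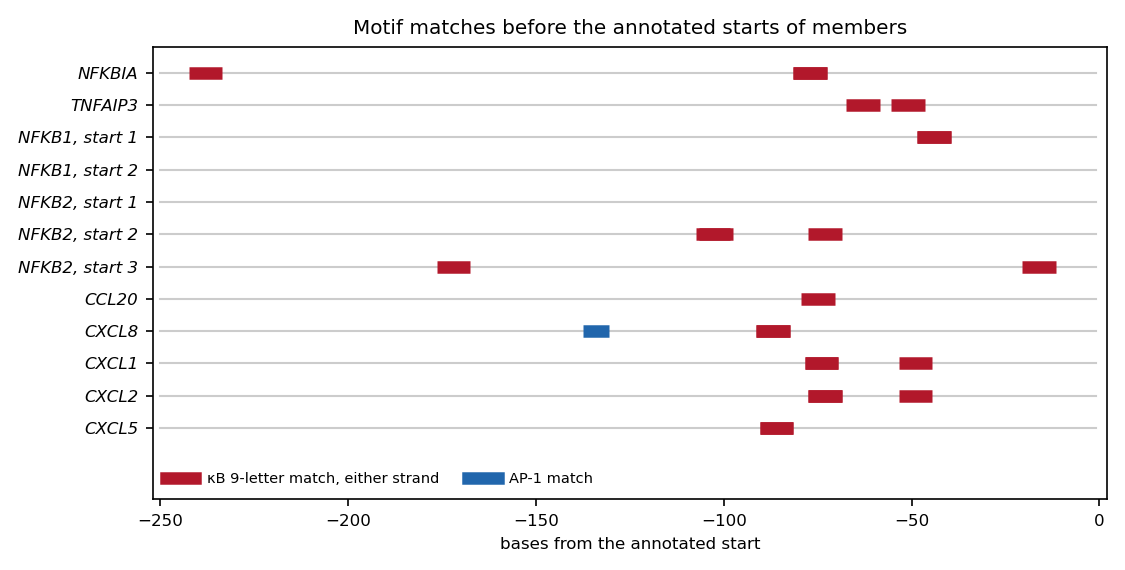
Positions of motif matches in the 250 bases before each annotated start of 9 genes, in bases from the start, with red blocks for GGNNNTTCC on either strand and the blue block for TGANTCA. Most red blocks sit within 110 bases of the start, and the first start of NFKB2 and the second start of NFKB1 have none.

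Library totals ran from 8983848 to 11176880 reads, TMM factors from 0.957 to 1.03, and 12780 to 13257 genes per library reached 10 reads. Levels are given as CPM, the reads of a gene per 1000000 reads of its library after edgeR's TMM correction of library size. Because 3′ libraries give reads near the poly(A) tail only, these levels do not grow with transcript length and were set side by side between genes. CDK4 was at 71.9 and CDK6 at 129 CPM after knockdown, against 354 and 536 with the scrambled siRNA. All 10 hepatocyte markers examined, among them ALB and AFP, were present in every library, with summed levels between 19264 and 24548 CPM. Differences are fold changes of genes that reached 10 reads in one of the libraries compared, computed after adding 0.5 reads to each count. The interval after a fold change is a 95% Clopper-Pearson interval from how the gene's reads divided between the libraries, and it covers counting error only, since reads without molecular identifiers are not independent molecules. Each condition had 1 library, so replicate error is unknown and no single comparison has a p-value. A gene is called higher or lower here at a fold change of 2 or more in either direction.

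NFKBIA was the most abundant of the 10 genes in all 4 libraries. In DMSO its level was 437 CPM, and TNFAIP3 (55.6), NFKB1 (47.9) and CCL20 (46.8) followed with Poisson intervals that overlapped in neighbouring pairs. NFKB2 (26 CPM), RELB (9.85), CXCL8 (3.28) and CXCL1 (1.97) came next in DMSO, and CXCL2 (1 read) and CXCL5 (0 reads) were at the floor of 3 reads, which equals 0.328 CPM in that library. The order was alike in scrambled siRNA. In CDK4/6 KD, CCL20 stood below RELB, at 5.39 against 9.72 CPM, and after PD0332991 both were at 11.3 CPM.

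**Figure D2:**
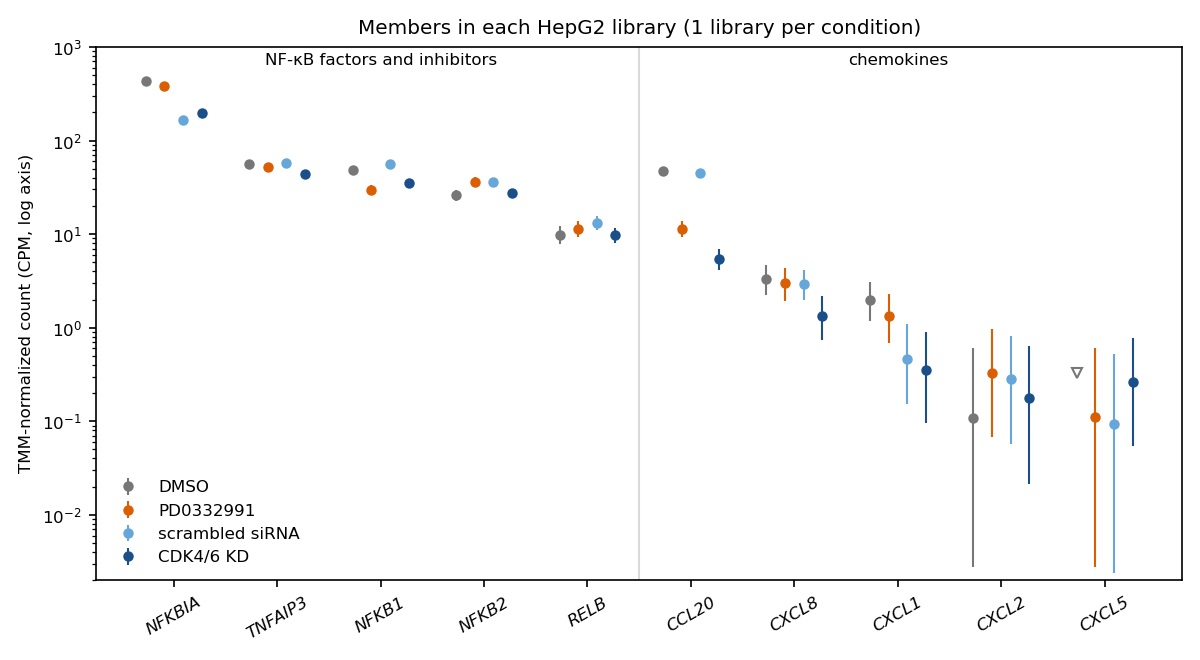
TMM-normalized counts (CPM, log axis) of the 10 genes in each of the 4 HepG2 libraries, where points are single libraries, bars are exact 95% Poisson intervals of the count, and the open triangle marks the limit of 3 reads (0.328 CPM) for CXCL5 in DMSO, which had 0 reads. CCL20 is at 46.8 and 45.5 CPM in the control libraries and at 11.3 and 5.39 CPM in the PD0332991 and CDK4/6 KD libraries.

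CCL20, the chemokine ligand of the receptor CCR6, was lower in both libraries with CDK4/6 inhibition. It had 428 reads in DMSO, 103 in PD0332991, 487 in scrambled siRNA and 61 with CDK4/6 KD, which equals 46.8, 11.3, 45.5 and 5.39 CPM. Both treated libraries were low and both control libraries high, and the controls differed by less than counting error (scrambled siRNA over DMSO: 0.972, with a counting interval of 0.852 to 1.11). The fold change was 0.119 (interval 0.0892 to 0.155) for CDK4/6 KD and 0.242 (interval 0.193 to 0.3) after PD0332991. With the control libraries exchanged the values were 0.116 and 0.249, so that the difference did not depend on which control was used. Of 13617 genes compared in CDK4/6 KD, 61 had a lower fold change than CCL20, and of 13443 after PD0332991, 310 had. These are bulk libraries, in which fewer cells expressing a gene and less of its RNA per cell cannot be told apart. In GENCODE 29 on GRCh38 the gene lies on chromosome 2 from 227805739 to 227817564 on the plus strand, and no other annotated gene overlaps it.

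Of the 10 genes, 7 passed the filter in CDK4/6 KD against scrambled siRNA, and 2 of these, CCL20 and CXCL8, were called lower, where 7.62% of all 13617 genes were. None was called higher, where 9.19% of all genes were. Their median log2 fold change was -0.44, beside -0.00 over all genes, and 6 of the 7 had intervals below 1, beside 31.9% of all genes. After PD0332991, 8 genes passed, CCL20 alone was called lower (7.06% of 13443 genes) and none was called higher (7.49% of genes). The median of these 8 genes was -0.17, beside 0.02 over all genes, and 3 of the 8 intervals lay below 1, beside 28.6% of all genes. Between the control libraries, of 8 genes that passed, NFKBIA and CXCL1 were called lower in scrambled siRNA than in DMSO (6.64% of 13303 genes), and none was called higher (5.3% of genes). The comparisons share libraries and are therefore not independent of each other.

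Both libraries with CDK4/6 inhibition were also set against both controls in edgeR's quasi-likelihood test over 13245 genes with Benjamini-Hochberg adjustment, a fit chosen after the data were seen. It treats drug and knockdown as repeats of 1 treatment. With transfection as a covariate, which leaves 1 residual degree of freedom, CCL20 was lower by a log2 fold change of -2.54 (adjusted p = 0.0196), one of 80 genes called lower (0.604% of genes). Without the covariate its adjusted p was 0.169 (log2 fold change of -2.46), and 0 of the 13245 genes were called, although 1421 had an unadjusted p under 0.05. NFKB1 was at -0.67 in both fits, with edgeR adjusted p of 0.362 and 0.434. Of the 6 other genes tested, the adjusted p lay above 0.05 in both fits, and CXCL2 and CXCL5 had too few reads to enter.

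**Figure D3:**
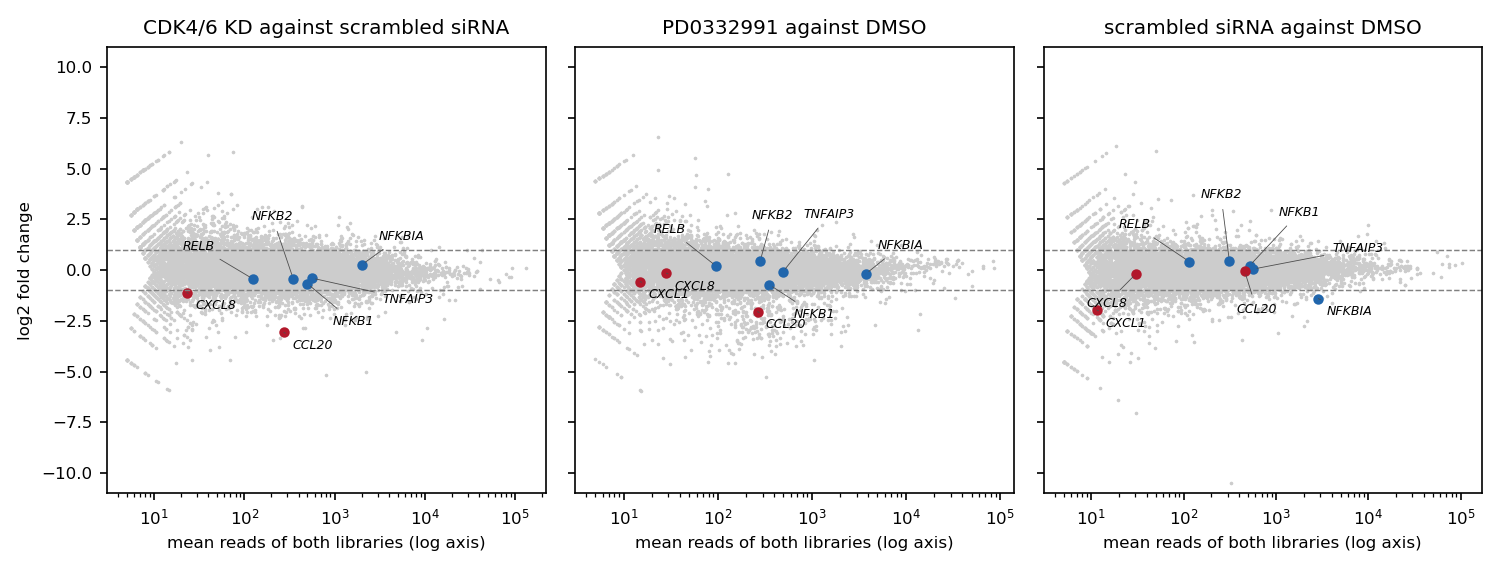
log2 fold change against the mean reads of the libraries compared (log axis) for every gene past the filter (grey), with NF-κB subunits and inhibitors in blue and chemokines in red; dashed lines mark 2-fold. CCL20 lies at -3.07 in CDK4/6 KD and -2.04 after PD0332991 and at -0.04 between the controls, while NFKBIA lies at -1.41 between the controls.

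CXCL8 encodes interleukin 8, a neutrophil attractant. It had 30 reads in DMSO, 27 in PD0332991, 31 in scrambled siRNA and 15 with CDK4/6 KD, or 3.28, 2.97, 2.9 and 1.33 CPM, so that CDK4/6 KD alone stood low. The fold change in CDK4/6 KD was 0.466 with an interval of 0.229 to 0.873, and against DMSO 0.412 (interval 0.202 to 0.774). The call was lost when 5 reads were added to each count in place of 0.5 (log2 fold change of -0.91, against -1.10). After PD0332991 the fold change was 0.905 and its interval of 0.517 to 1.57 included 1. CXCL8 is on chromosome 4 from 73740506 to 73743716 on the plus strand.

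CXCL1, CXCL2 and CXCL5, which also attract neutrophils through the receptor CXCR2, gave few reads. CXCL1 had 18 reads in DMSO, 12 in PD0332991, 5 in scrambled siRNA and 4 with CDK4/6 KD. The siRNA libraries were lower than the untransfected ones for this gene, and scrambled siRNA over DMSO gave 0.256, with an interval of 0.0688 to 0.663. CXCL1 passed the filter in that comparison through the DMSO library alone, and in CDK4/6 KD against scrambled siRNA it did not pass. Its fold change after PD0332991 was 0.678 (interval 0.294 to 1.47), and with scrambled siRNA as the control it was 2.64 (interval 0.925 to 10.2). CXCL2 had 1, 3, 3 and 2 reads and CXCL5 0, 1, 1 and 3 in DMSO, PD0332991, scrambled siRNA and CDK4/6 KD, all at or under the floor, and a difference was not detectable at this depth. In GENCODE 29 the last 300 bases of the longest CXCL1 and CXCL2 transcripts were 83.9% identical, with an identical run of 77 bases, while reads were 75 bases long, so that some reads could not be assigned to 1 of these genes with certainty.

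The 5 chemokines summed to 52.2 CPM in DMSO, 16 in PD0332991, 49.3 in scrambled siRNA and 7.51 after knockdown. CCL20 gave 89.7% and 92.4% of these chemokine reads in DMSO and scrambled siRNA, and 70.5% and 71.8% in PD0332991 and CDK4/6 KD. CCL20 reads therefore made up most of the difference in the sum.

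NFKBIA encodes IκBα, the inhibitor that holds NF-κB in the cytoplasm and is itself an NF-κB target. It had 3992 reads in DMSO, 3485 in PD0332991, 1765 in scrambled siRNA and 2248 with CDK4/6 KD, or 437, 383, 165 and 199 CPM. The siRNA libraries were low and the libraries without transfection high, whether CDK4/6 was inhibited or not. Scrambled siRNA over DMSO gave a fold change of 0.378 (interval 0.357 to 0.399), and 424 of 13303 genes had a lower one. Against their own controls the differences were small and went in opposite directions, with a fold change of 1.2 (interval 1.13 to 1.28) for CDK4/6 KD and 0.876 (interval 0.837 to 0.917) after PD0332991. The exchange of the controls turned both, to 0.455 in CDK4/6 KD and 2.32 after PD0332991. The gene is on chromosome 14 from 35401511 to 35404749 on the minus strand.

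TNFAIP3 encodes A20, a ubiquitin-editing enzyme that shuts off signalling upstream of NF-κB. Its levels were 55.6 CPM in DMSO (508 reads), 52.6 in PD0332991 (479 reads), 57.7 in scrambled siRNA (617 reads) and 44.1 in CDK4/6 KD (499 reads), and CDK4/6 KD was the lowest. The fold change was 0.765 for CDK4/6 KD (interval 0.678 to 0.862, or 0.793 against DMSO) and 0.946 after PD0332991 (interval 0.833 to 1.07). Reads of NFKBIA outnumbered those of TNFAIP3 by 7.86 in DMSO, 7.28 in PD0332991, 2.86 in scrambled siRNA and 4.51 with CDK4/6 KD, so that these feedback inhibitors did not keep a fixed ratio. GENCODE 29 places an antisense gene over part of TNFAIP3, though not over its 3′ end, and whether the counting used the strand is not given in the sources used here.

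NFKB1, the gene of p105 and p50, was lower in both comparisons with either control. It had 438 reads in DMSO, 267 in PD0332991, 598 in scrambled siRNA and 400 with CDK4/6 KD, or 47.9, 29.3, 55.9 and 35.3 CPM. Both treated libraries lay under both controls. The fold change was 0.633 for CDK4/6 KD (interval 0.556 to 0.719) and 0.612 after PD0332991 (interval 0.523 to 0.714), or 0.737 and 0.525 with the controls exchanged, none of which reached 2-fold. In CDK4/6 KD, 15% of all genes compared had a fold change as low as NFKB1 or lower, and after PD0332991 11.5% had.

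NFKB2, the gene of p100 and p52 in the alternative NF-κB pathway, had 238 reads in DMSO, 330 in PD0332991, 387 in scrambled siRNA and 308 with CDK4/6 KD, or 26, 36.2, 36.2 and 27.2 CPM. PD0332991 and scrambled siRNA were the high libraries, so that the fold change was 0.753 (interval 0.646 to 0.876) for CDK4/6 KD and 1.39 (interval 1.17 to 1.65) after PD0332991. With the controls exchanged both intervals included 1 (fold changes of 1.04 and 1.00). The ratio of NFKB1 to NFKB2 reads was 1.84 in DMSO, 0.809 in PD0332991, 1.55 in scrambled siRNA and 1.3 with CDK4/6 KD.

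RELB, the partner of p52, had 90 reads in DMSO, 103 in PD0332991, 141 in scrambled siRNA and 110 with CDK4/6 KD, or 9.85, 11.3, 13.2 and 9.72 CPM. Scrambled siRNA was the highest library. The fold change was 0.738 for CDK4/6 KD (interval 0.569 to 0.953, or 0.987 against DMSO, interval 0.74 to 1.32) and 1.15 after PD0332991 (interval 0.857 to 1.54).

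**Figure D4:**
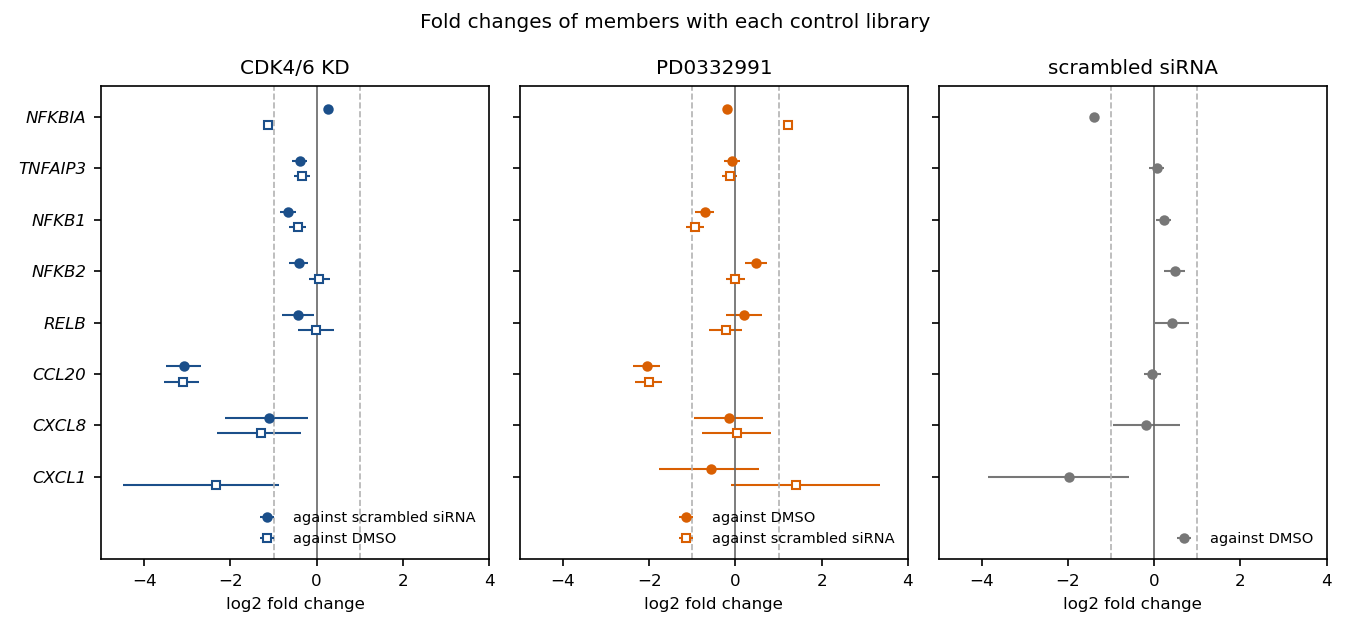
log2 fold changes of the 8 genes with enough reads, with filled circles for the assigned control library and open squares for the control of the other arm; bars are 95% counting intervals and dashed lines mark 2-fold. CCL20, NFKB1 and TNFAIP3 keep their side of 0 with either control in both arms, though the TNFAIP3 intervals after PD0332991 include 0. NFKBIA changes side in both arms.

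Other genes of the pathway were examined with hand-written lists. Of 9 further REL and IκB family genes, 8 passed the filter and none was called in CDK4/6 KD or after PD0332991. For RELA, the p65 subunit, CDK4/6 KD gave 0.957 (interval 0.877 to 1.04) and PD0332991 gave 1.38 (interval 1.25 to 1.53). DMSO was the low library for RELA, at 72.7 CPM, against 100 in PD0332991, 95.6 in scrambled siRNA and 91.5 with CDK4/6 KD. Scrambled siRNA over DMSO gave 1.32 (interval 1.19 to 1.45). BCL3, an IκB protein of the nucleus, was called lower between the controls, as NFKBIA was, with 245 reads in DMSO and 111 in scrambled siRNA (fold change: 0.388, interval 0.306 to 0.486). All 20 signalling intermediates passed. In CDK4/6 KD, 1 was called higher (TAB2, fold change: 2.49, or 1.43 against DMSO) and 2 lower, TRAF2 among them (fold change: 0.43, or 0.537 against DMSO), beside 9.19% and 7.62% of all genes. After PD0332991, 1 was called higher (TRAF6, fold change: 2.08, on 45 and 94 reads, or 0.899 against scrambled siRNA) and none lower, beside 7.49% and 7.06% of all genes. Their medians were -0.01 in CDK4/6 KD and 0.10 after PD0332991, as log2 fold changes. Of 13 further negative regulators, 12 passed, none was called in CDK4/6 KD and SOCS1 was called lower after PD0332991 (fold change: 0.499, or 0.569 against scrambled siRNA), beside 7.06% of all genes.

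Among 28 further NF-κB target genes, 19 passed in CDK4/6 KD, where 4 were called lower and 2 higher (7.62% and 9.19% of all genes) with a median of -0.29, and 19 passed after PD0332991, where 2 were called lower and 3 higher (7.06% and 7.49% of all genes) with a median of 0.14. In CDK4/6 KD, 5 intervals lay above 1 and 9 below, beside 30% and 31.9% of all genes. After PD0332991, 7 lay above 1 and 4 below, beside 28.1% and 28.6% of all genes. BIRC3, an inhibitor of apoptosis, had 43 reads in DMSO, 23 in PD0332991, 90 in scrambled siRNA and 11 with CDK4/6 KD. Its fold change was 0.12 for CDK4/6 KD (interval 0.0557 to 0.217, or 0.215 against DMSO) and 0.542 after PD0332991 (interval 0.309 to 0.911, or 0.304 against scrambled siRNA). IER3, an early response gene, had 5812, 3904, 18350 and 2736 reads in the same order of libraries, so that it was high in scrambled siRNA and low after knockdown (fold change: 0.141, or 0.38 against DMSO). After PD0332991 it was at 0.674, or 0.25 against scrambled siRNA. BCL2A1, an anti-apoptotic BCL2 relative, was lower on few reads (fold change: 0.23, interval 0.112 to 0.414), and its interval included 1 against DMSO (fold change: 0.708). SOD2 and ICAM1 did not reach 2-fold, with fold changes of 0.538 and 0.553 in CDK4/6 KD and 0.909 and 1.1 after PD0332991. TNFAIP8 was called lower after PD0332991 (fold change: 0.451). The target genes called higher were TNFAIP2 (2.12) and RND3 (2.46) in CDK4/6 KD, and TNFAIP2 (2.9), PLAU (2.53) and PTGS2 (2.21) after PD0332991. Each had at most 45 reads per library, and TNFAIP2 and PTGS2 passed the filter through the treated library alone. EFNA1 (1.66 and 1.45), C3 (1.46 and 1.3) and IRF1 (1.41 and 1.57) had intervals above 1 in CDK4/6 KD and after PD0332991.

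CCR6, the receptor of CCL20, was the only one of 10 chemokine receptors that passed the filter. It had 226 reads in DMSO, 189 in PD0332991, 595 in scrambled siRNA and 303 with CDK4/6 KD. The scrambled siRNA library stood high, and the fold change of 0.482 in CDK4/6 KD (interval 0.418 to 0.554) was 1.08 against DMSO (interval 0.908 to 1.29). CXCR1 had 0 reads in all 4 libraries, which at a limit of 3 reads allows up to 0.265 to 0.329 CPM, and CXCR2 had 1 read in DMSO and 0 in the others.

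Of 23 other chemokines, 7 passed in each comparison, though not the same 7, and their medians on the log2 scale were 0.67 in CDK4/6 KD and 0.85 after PD0332991. In CDK4/6 KD 2 were called higher (9.19% of all genes) and 1 lower (7.62% of all genes), CXCL12, on 6 and 12 reads (interval 0.146 to 1.36). CXCL16 was also below its control there (fold change: 0.703, interval 0.617 to 0.8) and above it after PD0332991 (1.35, interval 1.18 to 1.55). After PD0332991 2 were called higher (7.49% of all genes), of which CCL2 passed the filter through the PD0332991 library alone, with 20 reads against 7. CX3CL1 was at 1.99 after knockdown and 0.93 after PD0332991. CCL16, a chemokine made by liver, was called higher in both (fold changes of 2.42 and 2.13, or 2.52 and 2.05 with the controls exchanged), with 130 reads in DMSO, 276 in PD0332991, 158 in scrambled siRNA and 406 with CDK4/6 KD. CCL14 was higher in CDK4/6 KD on 17 and 51 reads (fold change: 2.78, or 1.52 against DMSO, interval 0.938 to 2.53).

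TNF and IL-1, the cytokines best known to start NF-κB signalling, gave few reads. TNF had 1 read in DMSO and 0 elsewhere. IL1A had 2 reads in DMSO, 11 in PD0332991, 5 in scrambled siRNA and 8 with CDK4/6 KD, and IL1B had 11, 24, 6 and 15. Both were highest in the PD0332991 library (IL1B fold change: 2.14, interval 1.03 to 4.95). Of 15 listed cytokines, 8 passed in CDK4/6 KD and after PD0332991 and 7 between the controls. IL11 was called lower in CDK4/6 KD (310 reads in scrambled siRNA and 50 with CDK4/6 KD, fold change: 0.154, or 0.323 against DMSO), where 7.62% of all genes were. IL1B was called higher there (fold change: 2.26, interval 0.866 to 7.43), where 9.19% of all genes were. After PD0332991, IL18 was called lower (fold change: 0.292, 7.06% of all genes) and 3 cytokines were called higher (7.49% of all genes). These were TNFSF10 (fold change: 3.39), IL1A and IL1B. IL1A after PD0332991 and IL1B in CDK4/6 KD passed the filter through the treated library alone, so that they could not have been called lower. Of 17 cytokine and death receptor genes listed, 12 passed, with medians of 0.10 in CDK4/6 KD and 0.02 after PD0332991, where TNFRSF11A, the receptor RANK, was called lower (fold change: 0.487, or 1.84 against scrambled siRNA). The list also held the IL-1 antagonist IL1RN, which had 556 reads in DMSO, 703 in PD0332991, 252 in scrambled siRNA and 535 with CDK4/6 KD (fold changes of 2 and 1.27, or 0.777 and 3.27 with the controls exchanged).

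AP-1 and C/EBP factors are known to act on promoters of several inflammatory genes, and chemokine mRNAs are bound by proteins that control decay through AU-rich elements. FOSL1, an AP-1 subunit, was lower in both comparisons, with 115 reads in DMSO, 42 in PD0332991, 137 in scrambled siRNA and 62 with CDK4/6 KD (fold changes of 0.43 and 0.369, or 0.437 and 0.363 with the controls exchanged). Both controls were high and both treated libraries low, as for CCL20. The part of FOSL1 in the CCL20 values was not tested. CEBPB and ATF3 were higher after knockdown (2.04-fold and 2.69-fold, or 1.54-fold and 4-fold against DMSO) and did not reach 2-fold after PD0332991. Of the 12 AP-1 and C/EBP genes, 11 passed in CDK4/6 KD, with 2 called in each direction, beside 9.19% of all genes higher and 7.62% lower. After PD0332991 10 passed, and FOSL1 alone was called, where 7.06% of all genes were called lower and 7.49% higher. All 10 decay factor genes passed, with medians of 0.01 in CDK4/6 KD and -0.51 after PD0332991, where 7 had intervals below 1, beside 28.6% of all genes, and none was called. KHSRP, which binds AU-rich elements and promotes decay, was lower after knockdown (fold change: 0.375, interval 0.362 to 0.388, or 0.357 against DMSO), and AUH was higher (fold change: 2.28, or 1.04 against DMSO).

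The control libraries also differed for genes of these lists. With scrambled siRNA over DMSO, TRAF6 (2.32), IER3 (2.7), BCL2A1 (3.07), IL11 (2.1), CCR6 (2.25) and FOSL2 (2.22) were called higher. TNFRSF11A (0.265), IL1RN (0.388), CEBPA (0.244), AUH (0.457) and HNRNPD (0.499) were called lower. CCL20, in contrast, was at 0.972 in the same comparison.

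**Figure D5:**
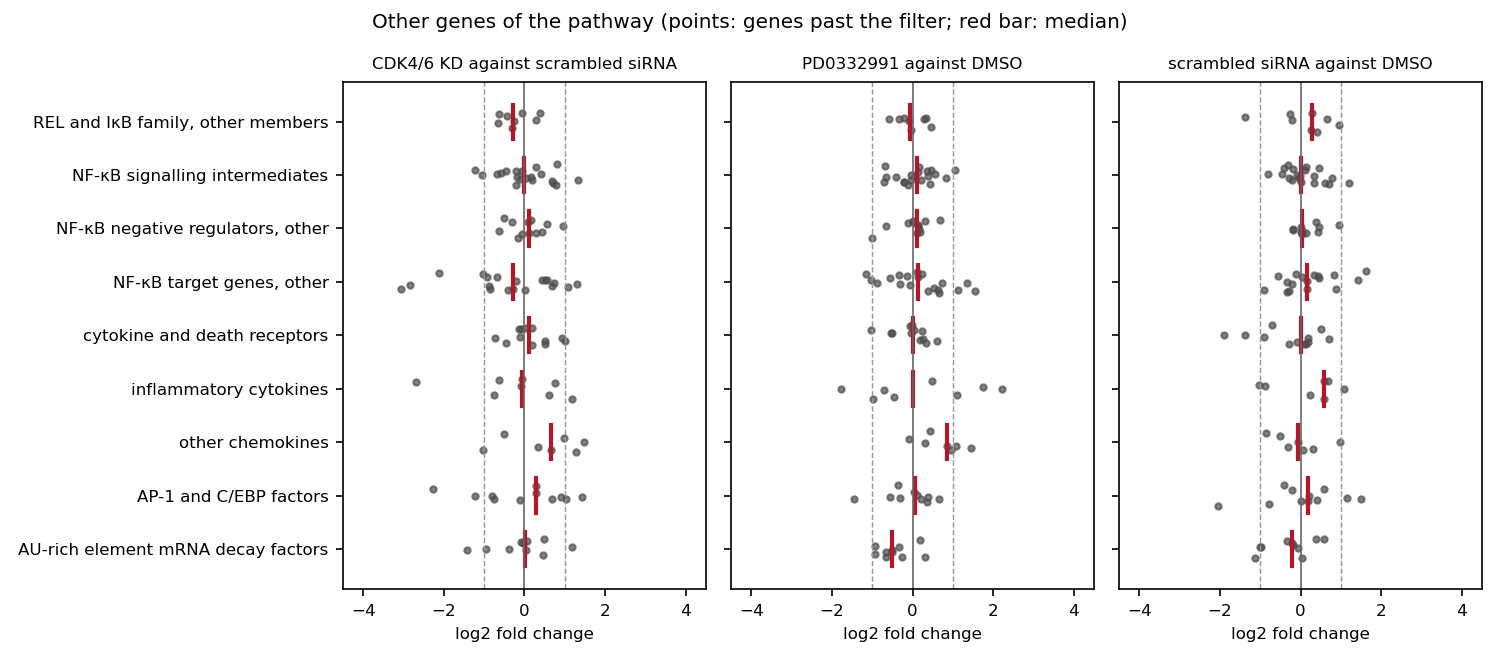
log2 fold changes of genes past the filter in 9 lists of the NF-κB pathway and its surroundings, 1 point per gene, with the median as a red bar and 2-fold as dashed lines. The other chemokines have medians of 0.67 in CDK4/6 KD, 0.85 after PD0332991 and -0.06 between the controls.

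CCL20 and the CXCL chemokines are also made by keratinocytes and leukocytes, and markers of such cells were therefore counted in each library. Of 18 keratinocyte markers, 14 to 17 had a read, with summed levels of 209 CPM in DMSO, 231 in PD0332991, 369 in scrambled siRNA and 215 with CDK4/6 KD. KRT14 had 9, 249, 31 and 74 reads and KRT5 had 2, 113, 13 and 43 in DMSO, PD0332991, scrambled siRNA and CDK4/6 KD, so that these were highest in the PD0332991 library, where CCL20 was low. SFN (61.8 to 305 CPM) and KRT10 (48 to 87.1 CPM) carried the sum. After PD0332991, 8 of 11 markers that passed were called higher (7.49% of all genes), among them KRT6A (fold change: 15.9), and SFN was called lower (0.463). Of those called higher, all but KRT17 passed the filter through the PD0332991 library alone, so that they could not have been called lower. In CDK4/6 KD, 4 of 9 were called higher (9.19% of all genes) and SFN lower (0.334). Between the controls 6 of 9 were called higher (5.3% of all genes), and all of these but SFN passed through the scrambled siRNA library alone. The part of these markers in the chemokine values was not tested. Of 10 leukocyte markers, 5 or 6 had a read in each library. PTPRC, which encodes CD45, had 2 reads in DMSO and 0 in the others, and CD3E had 0 in all 4. LYZ, a lysozyme gene that also belongs to this list, gave most of its summed level of 511 to 1040 CPM. Of 10 endothelial and stromal markers, 6 to 8 had a read, with 129 to 252 CPM in sum, most of it from ACTA2 (88.4 to 174 CPM). Of its endothelial genes, CDH5 and KDR had 0 reads in all 4 libraries. PECAM1 had 4, 1, 5 and 1 reads and VWF 0, 3, 0 and 3 in DMSO, PD0332991, scrambled siRNA and CDK4/6 KD. In scrambled siRNA against DMSO, where NFKBIA and CXCL1 were lower, 4 of the 5 endothelial and stromal markers that passed were called lower (6.64% of all genes), COL1A1 at 0.189 and COL1A2 at 0.225 among them. COL3A1 (30 reads in DMSO, 1 in scrambled siRNA) and PDGFRB (11 and 1) passed through the DMSO library alone. In CDK4/6 KD, 1 of 3 was called higher, COL1A1 at 2.67 (9.19% of all genes). After PD0332991, 2 of 6 were called higher (7.49% of all genes). These were COL1A2 at 2.24 and DCN, which passed through the PD0332991 library alone (18 reads, 0 in DMSO). The part of these genes in the NFKBIA and CXCL1 values was not tested.

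The genes whose pattern over the 4 libraries was most like that of CXCL8 were CTDSPL, FBXO21, CNOT6, PHACTR4 and CEP89, of 10673 genes that averaged 50 reads or more over the libraries. Likeness was the Euclidean distance between log2 levels centred on their mean, from 0.0433 for CTDSPL to 0.111 for CEP89. For CCL20, chosen for this after its values were seen, they were MT2A, SLC25A32, ORC1, POLE3 and UBR7, at distances from 0.936 to 1.11. MT2A, a metallothionein gene, was at 1810, 917, 2540 and 474 CPM in DMSO, PD0332991, scrambled siRNA and CDK4/6 KD, in that order. The CXCL8 pattern rested on 15 to 31 reads per library.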

How the data were processed

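QuantSeq 3′ mRNA libraries were made from 500 ng of total RNA of HepG2 cells and read as single ends of 75 bases. The deposited values are raw read counts, listed by gene symbol in 1 table for each library. Per the submitters' processing notes Bowtie2, edgeR and hg19 were used, without versions. The annotation and the use of strand are not given in the sources used here. Reads of 286 repeated symbols were summed. TMM factors came from edgeR 4.0.16 (R 4.3.3). Before taking ratios, 0.5 reads scaled to library size were added as a pseudocount. Clopper-Pearson and Poisson intervals were computed with scipy 1.17.1, and the procedure was tested on simulated data. Single comparisons of 1 library with 1 library were not tested. edgeR's quasi-likelihood test was run on both inhibited libraries against both controls, over genes with at least 10 reads in 2 or more libraries.

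The genes and lists were chosen with earlier results of these data known. All 10 members were named, with at most 3 genes per list and comparison, those called on at least 50 reads with the largest change. TNF, IL1A, IL1B, CXCR1, CXCR2, RELA, SOD2, ICAM1, TNFAIP2, RND3, PLAU, PTGS2, EFNA1, C3, IRF1, CCL2, CXCL12, CXCL16, CX3CL1, CDK4, CDK6 and the markers were named outside this rule, with their values known. Results were recomputed with DESeq2 1.42.0 size factors, total counts, quantile normalization (limma 3.58.1), a pseudocount of 5 reads, no filter or 50 reads, a threshold of 1.5-fold or the whole interval past 2-fold, and the control library of the other arm. Promoter windows are from RefSeq (GRCh38.p14) and gene positions from GENCODE 29 (GRCh38). The deposited counts carry symbols only.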

Additional observations from a re-analysis of the deposited data

Results flagged for a closer look

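Of the 7 genes with a counting interval in both arms, 2 had intervals on opposite sides of 1 with CDK4/6 KD and with PD0332991, as had 12.9% of the 13099 genes that passed the filter in both arms. NFKBIA had a fold change of 1.2 in CDK4/6 KD against scrambled siRNA and 0.876 after PD0332991 against DMSO. NFKB2 had a fold change of 0.753 in CDK4/6 KD and 1.39 after PD0332991. The difference between the arms was not tested, since a model with that term leaves no residual degrees of freedom among the 4 libraries.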

How the results depend on the processing

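In CDK4/6 KD, 2 of the genes were called, against 1 with a pseudocount of 5 reads, 1 with a filter of 50 reads and 1 when the counting interval itself had to exceed 2-fold (CCL20 each time), 4 against DMSO (NFKBIA, CXCL1, CXCL8 and CCL20, all lower), 3 without a filter (CXCL5 was added, higher) and 3 at 1.5-fold (NFKB1 was added, lower). After PD0332991, 1 was called, against 3 without a filter, 2 at 1.5-fold (NFKB1 was added) and 3 against scrambled siRNA (NFKBIA and CXCL1 higher, CCL20 lower). Between the controls 2 were called, against 4 without a filter, 1 with a filter of 50 reads and 1 by the whole interval (NFKBIA). The calls added without a filter were of CXCL2 or CXCL5, on at most 3 reads. The share of all genes called was not computed under these alternative settings. A rise or fall in the count of called genes has therefore no background beside it. With the other control library, CXCL1 passed the filter through 1 library alone. This was DMSO (18 reads, 4 in CDK4/6 KD) or PD0332991 (12 reads, 5 in scrambled siRNA, interval 0.925 to 10.2). In the edgeR test of both inhibited libraries against both controls, chosen after seeing the data, 1 of the genes was called with transfection as a covariate (CCL20) and 0 without it. In each fit 2 of the 8 genes tested had an unadjusted edgeR p under 0.05 (NFKB1 and CCL20). Of all genes, 12% had one with the covariate and 10.7% without it. CCL20 was called lower in both arms under every alternative that kept 2-fold or 1.5-fold calls, with log2 fold changes from -3.11 to -2.96 in CDK4/6 KD and down to -2.06 after PD0332991. Of the fold changes of the 8 genes that passed a filter, 7 of 15 left their counting interval with the other control library, 1 of 23 with total counts and 1 of 23 with quantile normalization. With the other control library NFKBIA moved to -1.14 in CDK4/6 KD and 1.21 after PD0332991, NFKB2 to 0.06 in CDK4/6 KD, and RELB to -0.22, CXCL8 to 0.03 and CXCL1 to 1.40 after PD0332991, each across 0 though not called in the assigned comparison. Total counts moved the median of all genes in CDK4/6 KD from -0.00 to 0.10. Replicates could not be left out with 1 library per condition, and depth limits CXCL1, CXCL2, CXCL5 and CXCL8.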
